A study of Mus musculus with 6 samples.

Results

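Perivascular macrophages are resident immune cells of the brain that lie in the space between the vessel wall and the surrounding brain tissue, outside the endothelium and next to the mural cells. Unlike microglia, which sit in the brain tissue itself, they carry a set of receptors with which they take up proteins, sugars and debris from the fluid around the vessels. The transcripts followed here are 9 genes that are commonly used to recognise these cells: *Mrc1*, *Lyve1*, *Cd163*, *F13a1*, *Pf4*, *Ms4a7*, *Cbr2*, *Stab1* and *Dab2*. All 9 were found by symbol among the 33460 genes listed, and all 9 were among the 14801 genes that could be tested.

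The study compared 3 libraries of mural cells (pericytes and vascular smooth muscle cells) with 3 libraries of brain microvascular fragments, both from brain at postnatal day 6. The animals, of the cross *Pdgfrb-eGFP/NG2-DsRed*, carried eGFP under the control of *Pdgfrb* (line Tg(Pdgfrb-eGFP)JN169Gsat/Mmucd) and DsRed under the control of NG2 (*Cspg4*). Double positive cells were sorted by FACS, because each reporter alone also marks cells that are not mural. Fragments were captured from collagenase-treated brain with magnetic beads carrying anti-CD31, and hold endothelial cells together with attached cells. According to the methods, 3 brains were used and each was divided between both preparations, so the libraries of a group came from separate animals. None of the libraries was made from sorted macrophages, so the level of a gene here reflects both how many cells of a type were present and how much RNA each held, and fewer cells of a type and less RNA per cell cannot be told apart.

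Values are FPKM, the sequenced fragments of a gene scaled to its exon length and to the depth of the library, so that levels can be compared between genes per length. The fragments libraries rested on approximately 5.44 to 5.98 M read pairs on protein-coding genes and the mural cell libraries on 1.04 to 2.36 M, as recovered from the steps between low values. Library 1 was the deepest of the mural cell libraries. All 10 mural markers were higher in sorted cells, among them *Pdgfrb* (9.81-fold) and *Cspg4* (6.47-fold), the genes of the reporters. Endothelial transcripts were also present in the sorted cells, where the median of 10 endothelial genes was 67.4% of the fragments level. Of the 10, 2 (*Ly6c1* and *Slco1a4*) were called lower, against 10.1% of all tested genes. The number called lower was 0 or 1 when a fragments library was left out.

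All 9 perivascular macrophage genes were lower in sorted mural cells than in fragments. The mean FPKM in mural cells was 6.02 to 27.8% of that in fragments, with a median of 10.2%, whereas the median over all tested genes was 94.3%. A gene was called lower when the adjusted p of limma on log2(FPKM + 1) was under 0.05 and the ratio of mean FPKM was under 0.5, and higher when the ratio was above 2. By this rule 9 of 9 genes were called lower and 0 higher, against 10.1% of all tested genes called lower (1493 genes) and 6.43% called higher (952 genes). With quantile normalization the split over all genes turned to 1079 lower and 1209 higher, and all 9 genes were still called lower. In each of the 9, every mural cell library was below every fragments library, as was the case for 24.5% of all tested genes. In fragments every value of the 9 genes was at least 1, which was enough to pass the filter on low values. *Mrc1*, *Cbr2*, *Stab1* and *Dab2* also reached 1 in every mural cell library. *Lyve1*, *Cd163*, *F13a1*, *Pf4* and *Ms4a7* did not, so for them the filter itself favoured genes that are high in fragments. Without fragments library 2 or without fragments library 3 the number called lower was 7, since *Cbr2* and *Ms4a7* missed the threshold.

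**Figure D1:**
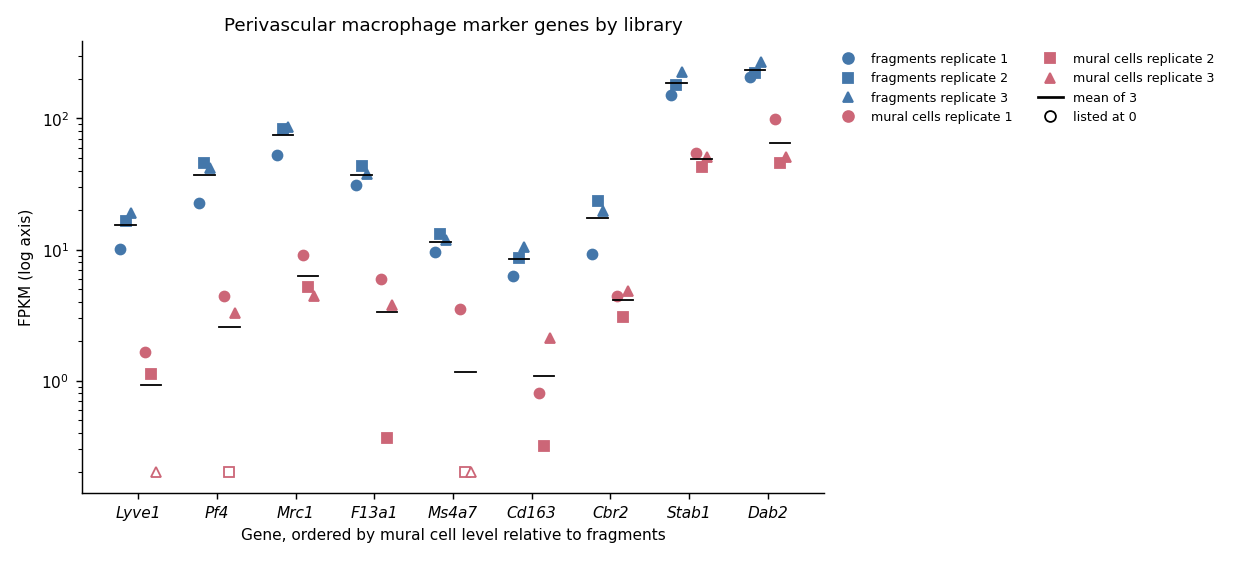
FPKM of the 9 perivascular macrophage genes in each library, on a log axis; points are libraries, bars the means of 3 libraries, and open points at the bottom mark genes listed at 0. All mural cell points lie below the fragments points of the same gene, with *Stab1* and *Dab2* the highest in both groups and *Lyve1*, *Pf4* and *Ms4a7* listed at 0 in at least 1 mural cell library.

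The uptake receptors were among the highest and the lowest of the 9. *Mrc1* (ENSMUSG00000026712, chr2:14151041-14253684 on the + strand of NCBIM37, 30 exons in its longest transcript) encodes CD206, the macrophage mannose receptor, which binds sugars on glycoproteins. Its FPKM was 52.6, 83.4 and 86.5 in fragments libraries 1, 2 and 3, and 9.07, 5.22 and 4.43 in mural cell libraries 1, 2 and 3. The lowest fragments library was thus far above the highest mural cell library. The mean fell from 74.2 ± 18.7 to 6.24 ± 2.48 (SD, n = 3 each), or to 8.41%, with a log2 fold change of -3.40 ± 0.29 (SE) and an adjusted p of 0.000318 by limma.

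*Lyve1* (ENSMUSG00000030787, chr7:117994121-118006467, − strand) encodes a hyaluronan receptor of lymphatic endothelium and of macrophages along vessels. Its FPKM was 10.1, 16.6 and 19.1 in fragments and 1.64, 1.12 and 0 in mural cells. This was the lowest share of the 9, at 6.02% (log2 fold change -3.15 ± 0.43 SE, adjusted p = 0.00217 by limma). *Lyve1* has a single annotated transcript, so its values could be turned into read pairs, which were approximately 111, 169 and 213 in fragments and 7, 2 and 0 in mural cells. Pooled over libraries, 9 against 493 read pairs gave a level of 7.46% of fragments, with an exact 95% interval of 3.39 to 14.3% that covers counting error only. A count of 0 in mural cell library 3 allows an FPKM of up to 1.58, taking 3 read pairs as the limit. Without mural cell library 1 the share was 3.66%.

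*Cd163* (ENSMUSG00000008845, chr6:124254669-124280545, + strand) encodes the receptor that clears haemoglobin bound to haptoglobin. It was the lowest of the 9 in fragments, at 6.27, 8.67 and 10.5 FPKM, and measured 0.803, 0.319 and 2.11 in mural cells. The groups did not overlap, but the mural cell values spread widely among themselves. The mean was 8.48 ± 2.12 against 1.08 ± 0.927, a share of 12.7% (log2 fold change -2.26 ± 0.38 SE, adjusted p = 0.00559 by limma), which became 6.62% without mural cell library 3.

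*Stab1* (ENSMUSG00000042286, chr14:31952199-31981827, − strand) encodes stabilin-1, a large scavenger receptor of macrophages and some endothelia. With FPKM of 151, 181 and 227 in fragments and 54.8, 43.0 and 50.5 in mural cells, it was higher in mural cells than any other of the 9 except *Dab2*. The mural cell values lay close together (49.4 ± 5.96) and the share was 26.5% (log2 fold change -1.88 ± 0.17 SE, adjusted p = 0.000421 by limma).

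*Dab2* (ENSMUSG00000022150, chr15:6249788-6390712, + strand) encodes an adaptor that links cargo receptors to clathrin during endocytosis. Its FPKM was 209, 223 and 270 in fragments and 98.7, 45.5 and 51.2 in mural cells. Mural cell library 1 was the highest of its group, yet below every fragments library. The share was 27.8%, the highest of the 9 (log2 fold change -1.91 ± 0.28 SE, adjusted p = 0.00308 by limma).

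The genes of secreted proteins had shares under 10%. *Pf4* (ENSMUSG00000029373, chr5:91201461-91202407, + strand) encodes CXCL4, a chemokine stored in platelets and also made by macrophages at the borders of the brain. Its FPKM was 22.8, 45.8 and 42.0 in fragments and 4.44, 0 and 3.30 in mural cells. The transcript is short, and the mural cell values stood on 3, 0 and 1 read pairs against 40, 75 and 75 in fragments. Pooled, 4 against 190 read pairs gave 8.60% (exact 95% interval 2.32 to 22.4%), and a count of 0 in mural cell library 2 allows an FPKM of up to 10.4. The ratio of mean FPKM was 6.99%, the log2 fold change -3.67 ± 0.64 (SE) and the adjusted p 0.00618 by limma. Without mural cell library 1 the ratio was 4.47%, and without library 2 it was 10.5%.

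*F13a1* (ENSMUSG00000039109, chr13:36959047-37142113, − strand) encodes the A subunit of coagulation factor XIII, a transglutaminase that cross-links fibrin. Its FPKM was 31.2, 43.5 and 37.4 in fragments and 5.92, 0.367 and 3.79 in mural cells. Fragments varied little (37.3 ± 6.15) and mural cells by more than their mean from lowest to highest (3.36 ± 2.80). The share was 9.0% (log2 fold change -3.41 ± 0.56 SE, adjusted p = 0.00488 by limma), and 5.57% without mural cell library 1.

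The remaining genes were *Ms4a7* and *Cbr2*. *Ms4a7* (ENSMUSG00000024672, chr19:11395529-11410636, − strand) encodes a membrane protein with 4 transmembrane segments that distinguishes border macrophages from microglia. Its FPKM was 9.52, 13.1 and 11.8 in fragments, and 3.51, 0 and 0 in mural cells. The whole mural cell mean thus came from library 1, the deepest of the mural cell libraries, while counts of 0 in libraries 2 and 3 allow up to approximately 1.18 and 1.12 FPKM. The share was 10.2% with library 1 (log2 fold change -2.91 ± 0.59 SE, adjusted p = 0.0123 by limma), and without it *Ms4a7* was listed at 0 in all mural cell libraries left. *Cbr2* (ENSMUSG00000025150, chr11:120590803-120593428, − strand) encodes a carbonyl reductase. Its FPKM was 9.17, 23.3 and 19.6 in fragments and 4.40, 3.07 and 4.87 in mural cells, relative to its level the narrowest gap of the 9. The share was 23.7% (log2 fold change -1.77 ± 0.36 SE, adjusted p = 0.0124 by limma). Without fragments library 2 the adjusted p was 0.0519 for *Cbr2* and 0.0521 for *Ms4a7*, and without fragments library 3 it was 0.0615 and 0.0555, all by limma.

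By level in fragments the order was *Dab2*, *Stab1*, *Mrc1*, *F13a1*, *Pf4*, *Cbr2*, *Lyve1*, *Ms4a7* and *Cd163*. Only *Stab1* and *Mrc1*, and *Mrc1* and *F13a1*, were neighbours whose library values did not overlap. The median of the 9 in fragments was 36.9 FPKM, against 12.8 over all tested genes. The summed FPKM of the 9 was 502, 638 and 724 in fragments and 183, 98.6 and 120 in mural cells. Without *Stab1* and *Dab2* it was 142, 234 and 227 against 29.8, 10.1 and 18.5. Fragments library 1 had the lowest value for 9 of 9 genes, as it had for 31.0% of all tested genes, and mural cell library 1 had the highest for 7 of 9, as for 34.4%. Markers of monocytes and neutrophils went the other way among the fragments libraries, with 10 of 12 highest in library 1, for example *S100a9* at 60.6, 22.9 and 18.4 FPKM. Library 1 was also the highest for 8 of 10 mural, 7 of 10 endothelial and 2 of 13 microglia genes. With both libraries numbered 1 left out, 8 of the 9 genes could be tested and 8 were called lower, with *Ms4a7* not tested.

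The windows around the transcription starts were read for 8 of the 9 genes, of which *Lyve1* was not matched, from RefSeq (GRCm38.p6, a later build than the files, so these positions do not match those above). Each runs from 250 bases before to 50 bases after a start, and the 8 genes have 11 such windows. They were searched on both strands for GAGGAA, the core that the myeloid factor PU.1 binds, which was found in 9 of the 11 windows, belonging to 7 genes, and in 28.3% of the windows of all genes. TGCTGA, part of the site of MAF factors, was found in 3 windows (19.5% of all), TGANTCA, the AP-1 site, in 1 (7.81%), and TATAAA in 0 (13.6%). The window of *Cd163* held no GAGGAA. These are matches of letters, not measured binding. The windows of *Mrc1* and *Pf4*, with low shares in mural cells, and of *Stab1* and *Dab2*, with the highest, are shown 5′ to 3′ in the direction of the gene, with matches to GAGGAA on either strand in capitals (TTCCTC where the match is on the opposite strand). *Mrc1* holds 3 matches and each of the others 1. *Dab2* has a further window (chr15:6386498-6386797, + strand), not shown, which also holds 1 match.
Mrc1 (chr2:14229164-14229463, + strand): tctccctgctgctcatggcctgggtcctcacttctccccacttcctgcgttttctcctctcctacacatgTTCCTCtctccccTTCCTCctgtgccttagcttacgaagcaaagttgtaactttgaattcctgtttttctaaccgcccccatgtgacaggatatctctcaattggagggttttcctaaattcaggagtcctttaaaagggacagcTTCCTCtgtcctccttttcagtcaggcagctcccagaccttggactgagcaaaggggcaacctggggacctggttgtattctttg
Pf4 (chr5:90772185-90772484, + strand): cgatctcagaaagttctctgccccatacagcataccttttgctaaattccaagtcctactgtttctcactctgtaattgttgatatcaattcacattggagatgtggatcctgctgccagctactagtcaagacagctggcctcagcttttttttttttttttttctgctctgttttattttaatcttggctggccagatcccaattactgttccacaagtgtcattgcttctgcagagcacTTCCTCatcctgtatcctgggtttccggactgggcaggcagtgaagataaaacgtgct
Stab1 (chr14:31168592-31168891, − strand): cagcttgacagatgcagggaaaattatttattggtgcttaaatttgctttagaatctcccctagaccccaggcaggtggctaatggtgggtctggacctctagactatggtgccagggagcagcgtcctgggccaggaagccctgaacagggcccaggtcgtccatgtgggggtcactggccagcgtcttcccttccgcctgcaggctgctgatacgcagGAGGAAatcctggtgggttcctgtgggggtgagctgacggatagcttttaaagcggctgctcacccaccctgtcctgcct
Dab2 (chr15:6299539-6299838, + strand): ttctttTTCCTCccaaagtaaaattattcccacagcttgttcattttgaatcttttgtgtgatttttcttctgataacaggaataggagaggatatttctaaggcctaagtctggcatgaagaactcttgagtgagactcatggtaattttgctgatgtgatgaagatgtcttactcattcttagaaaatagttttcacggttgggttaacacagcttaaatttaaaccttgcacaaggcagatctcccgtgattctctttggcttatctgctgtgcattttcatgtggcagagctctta
The core was present in windows of genes from both ends of the range of shares.

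Relatives of the 9 genes were compared beside them, chosen by homology after the values of the 9 had been seen. Of 15 tested relatives, 1 (*Tgm1*, a transglutaminase gene) was called lower, where 10.1% of all tested genes were, and 2 were called higher. The number called lower was 0 to 2 under the alternatives. The median of the 15 was 79.6% of fragments. Both genes called higher belong to the mannose receptor family of *Mrc1*. *Mrc2*, which encodes the collagen-binding receptor Endo180, measured 16.1, 17.8 and 13.8 FPKM in fragments and 118, 93.6 and 103 in mural cells, a 6.59-fold higher mean (log2 fold change 2.65 ± 0.15 SE, adjusted p = 8.47e-05 by limma). *Pla2r1*, the phospholipase A2 receptor, rose from 2.85, 1.80 and 1.63 to 16.6, 21.8 and 19.6 FPKM, or 9.22-fold (log2 fold change 2.73 ± 0.25 SE, adjusted p = 0.000396 by limma). The groups did not overlap for either gene, and neither call was lost under any of the 15 alternatives computed for each gene. *Ly75*, the fourth member of the family, was at 74.2% in mural cells and not called (adjusted p = 0.0684 by limma). The paralog *Stab2* of *Stab1* was low in both groups, at 1.79 ± 0.283 and 0.792 ± 0.694 FPKM, and not called (adjusted p = 0.228 by limma).

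Around *Pf4* and *Ms4a7* the neighbouring genes could be compared. *Ppbp*, which encodes another platelet chemokine and lies 2.38 kb from *Pf4*, measured 0.247, 1.07 and 1.22 FPKM in fragments and 0.644, 0 and 1.44 in mural cells. The groups overlapped and no difference was called (adjusted p = 0.812 by limma), at a level of few read pairs. *Ms4a7* lies in a cluster of 15 *Ms4a* genes spread over 679 kb of chromosome 19, of which 4 were tested. All 4 were called lower, against 10.1% of all tested genes. They passed the filter on low values only with the fragments, so the filter itself favoured this direction. Besides *Ms4a7* the 4 were *Ms4a6b* (5.35% of fragments), *Ms4a6c* (2.30%) and *Ms4a6d* (16.8%). The call of *Ms4a6d* was lost when any fragments library was left out, and without mural cell library 3. It was also lost with a pseudocount of 0.1 and with no filter on low values. The adjusted p of *Ms4a6d* in these settings was 0.0527 to 0.112 by limma. Reads of these paralogs may have been divided between them, so their separate values are uncertain.

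The other myeloid genes of the fragments were also lower in mural cells. Of 21 tested genes of other border macrophage markers, 17 were called lower and 1 higher, with a median of 10.0%. Over all tested genes 10.1% were called lower and 6.43% higher. When any fragments library was left out, 12 of these 21 genes passed the filter on low values and 4 to 5 were called lower. The others passed it only with all fragments libraries, so for them the filter itself favoured this direction. Their values ranged from genes listed at 0 in all mural cell libraries, such as *Cd209f* with 7.90, 9.06 and 13.9 FPKM in fragments, to *Colec12*, a scavenger receptor that was 3.12-fold higher in mural cells (28.0 ± 6.17 against 87.3 ± 9.59, adjusted p = 0.000829 by limma). *Maf*, a transcription factor of these macrophages, fell to 19.1% (adjusted p = 0.000324 by limma), and the iron exporter *Slc40a1* was at 65.2% and not called. *Ms4a4a* of this list was not matched.

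Of 13 microglia genes 12 were called lower, with a median of 9.21%, and of 19 genes of all myeloid cells 18, with a median of 8.29%. Over all tested genes 10.1% were called lower. *Cx3cr1*, the fractalkine receptor of microglia, fell from 217 ± 43.8 to 16.2 ± 2.87 FPKM, or to 7.47%. *Csf1r*, the receptor for the growth factors of macrophages, fell from 752 ± 106 to 61.8 ± 24.5, or to 8.21%. Both genes were called (adjusted p = 8.36e-05 and 0.000166 by limma). The summed FPKM of the 19 myeloid genes was 2766 to 3236 in fragments and 207 to 327 in mural cells. The shares of the 9 genes lay within the range of the 13 microglia genes (0 to 57.7%), but its upper end was *Olfml3*, the gene not called. The next highest microglia gene was *Sall1* at 19.2%, and *Cbr2* (23.7%), *Stab1* (26.5%) and *Dab2* (27.8%) lay above it. Of the 19 myeloid genes only *Cyba* (51.6%) was higher than these. The place of *Cbr2* is uncertain, since its mural cell values stood on approximately 7, 2 and 3 read pairs. Without fragments library 1 its share was 19.2%. The bulk values do not separate the cell types.

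**Figure D2:**
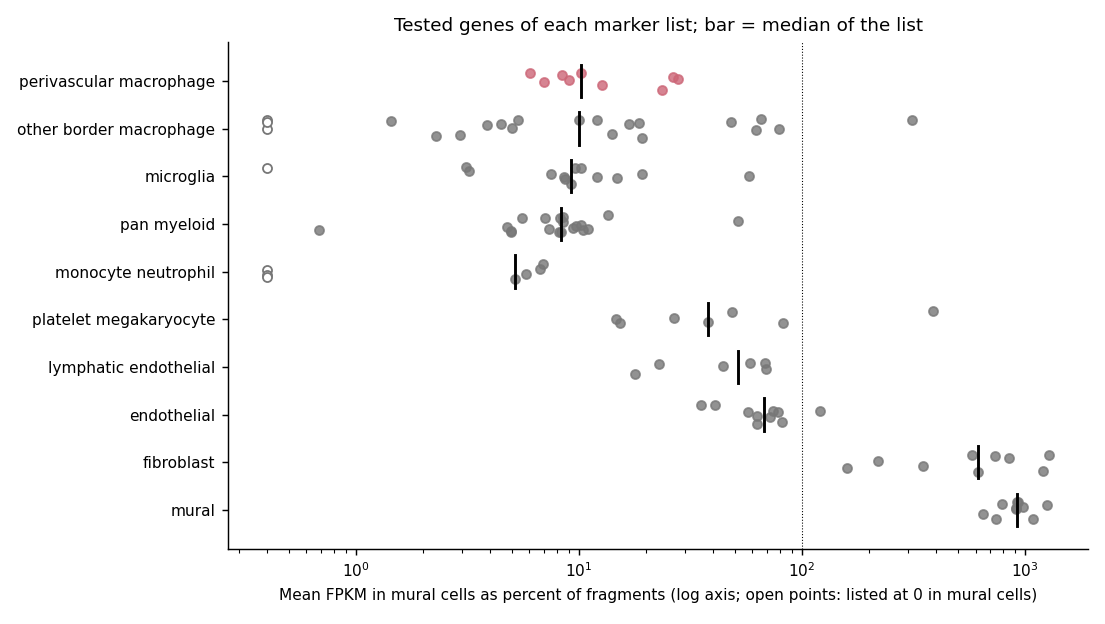
Mean FPKM in mural cells as a percent of that in fragments (log axis) for the tested genes of each marker list; each point is a gene, open points at the left mark genes listed at 0 in all mural cell libraries, bars are list medians and the dotted line marks 100%. The median of the 9 perivascular macrophage genes (10.2%) lies near those of the microglia (9.21%) and myeloid genes (8.29%). *Cbr2*, *Stab1* and *Dab2* lie above every microglia and myeloid gene but *Olfml3* and *Cyba*. The medians of endothelial (67.4%), fibroblast (617%) and mural genes (917%) are higher.

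Ratios between genes within a library do not depend on its scaling, and were computed for 10 pairs chosen after the values had been seen. The smallest p that an exact two-sided permutation test of 3 against 3 libraries can give is 0.1, so none could pass 0.05. *Mrc1* relative to *Csf1r* was 0.0612, 0.128 and 0.116 in fragments and 0.101, 0.116 and 0.0877 in mural cells. The groups overlapped, with a mean log2 difference of 0.06 (exact permutation p = 0.9, 1.0 after adjustment over the 10 pairs). *Mrc1* relative to *Cx3cr1* overlapped too (mean log2 difference 0.13, exact permutation p = 0.8).

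For *Dab2* and *Stab1* the groups separated. *Dab2* relative to *Csf1r* was 0.243, 0.344 and 0.362 in fragments and 1.10, 1.02 and 1.01 in mural cells, a mean log2 difference of 1.74 (exact permutation p = 0.1, 0.143 after adjustment). *Stab1* relative to *Csf1r* differed by 1.76 in the same direction, with the same p. *Mrc1* relative to *Dab2* was 0.252, 0.373 and 0.320 in fragments and 0.0920, 0.115 and 0.0866 in mural cells, a difference of -1.68 with the same p. *Dab2* relative to *Stab1* overlapped between the groups (difference -0.02, exact permutation p = 1.0). Relative to the endothelial gene *Pecam1*, which was at 62.9% in mural cells, *Dab2* and *Stab1* were lower by log2 differences of -1.25 and -1.22 and *Mrc1* by -2.93, without overlap in any of the 3 pairs. *Dab2* and *Stab1* thus stood between *Mrc1* and *Pecam1*. Whether transcripts of endothelial or mural cells form part of the *Dab2* and *Stab1* values was not tested.

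**Figure D3:**
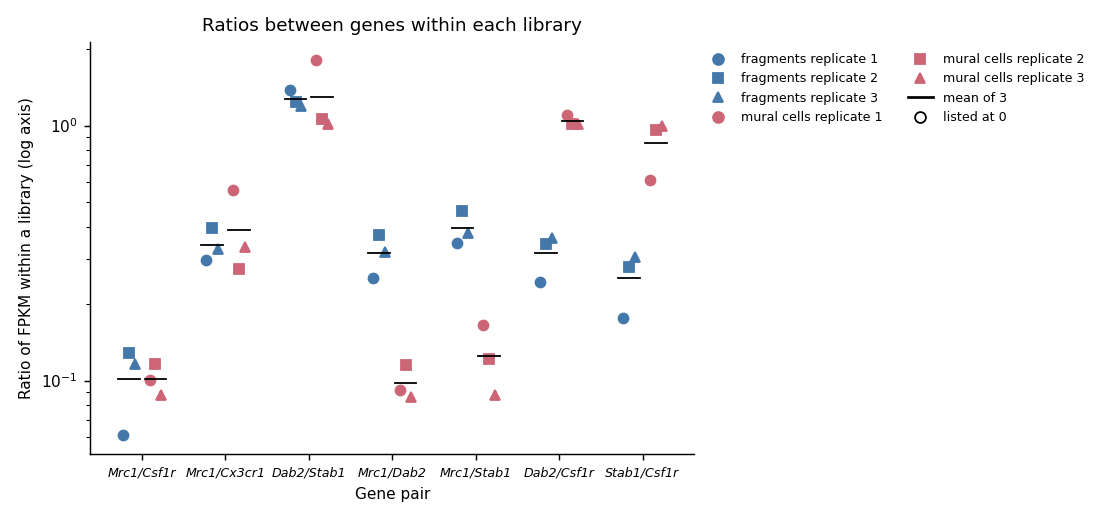
Ratio of FPKM between the genes of 7 pairs within each library (log axis); points are libraries and bars the means of 3. Fragments and mural cells overlap for *Mrc1*/*Csf1r*, *Mrc1*/*Cx3cr1* and *Dab2*/*Stab1*, and are separate for the 4 pairs that set *Dab2* or *Stab1* against *Mrc1* or *Csf1r*.

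Several of the 9 genes are also expressed outside macrophages, and the markers of those cells were examined beside them. Among 7 tested platelet and megakaryocyte genes, which bear on *Pf4* and *F13a1*, 1 was called lower (*Itga2b*) and 1 higher (*Gp1bb*). Over all tested genes 10.1% were called lower and 6.43% higher. Neither the call of *Itga2b* nor that of *Gp1bb* held without fragments library 1. That of *Gp1bb* was also lost without fragments library 2. That of *Itga2b* was also lost without fragments library 3 and without any single mural cell library. It was lost too with a pseudocount of 0.1, no filter, quantile normalization or the replicate block. The median of the 7 was 38.1% and the summed FPKM of the list 16.0 to 41.2 in fragments and 11.0 to 23.4 in mural cells. In 7 of the 10 genes the highest fragments value was in library 1, where *Pf4* and *F13a1* were lowest. It was also in library 1 for 8 of 10 mural, 7 of 10 endothelial and 2 of 13 microglia genes, so this is not particular to platelet genes. Among 6 tested lymphatic endothelial genes, which bear on *Lyve1* and *Stab1*, *Prox1* and *Reln* were called lower, against 10.1% of all tested genes. The median of the 6 was 51.5%. Neither *Prox1* nor *Reln* was called without fragments library 3 or without mural cell library 1. All 7 tested genes of monocytes and neutrophils were called lower (median 5.18%), against 10.1% of all tested genes. They passed the filter on low values only with the fragments, so the filter itself favoured this direction. With both libraries numbered 1 left out, 0 of the 3 that passed the filter were called lower. Without fragments library 1 or 2 the number was 2 of 4. *S100a8* was listed at 0 in all mural cell libraries against 32.7, 21.3 and 13.2 FPKM in fragments. The part of these cells in the 9 genes was not tested.

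Survival of macrophages depends on CSF1R, which binds the ligands CSF1 and interleukin-34. *Csf1r* and *Csf1* were lower in mural cells and *Il34* higher. *Il34* was 5.48, 6.97 and 5.67 FPKM in fragments and 50.3, 87.7 and 39.1 in mural cells, with the lowest mural cell library far above the highest fragments library. Its mean rose 9.78-fold, from 6.04 ± 0.813 to 59.1 ± 25.4 (log2 fold change 3.02 ± 0.29 SE, adjusted p = 0.000516 by limma), and the call held under all 15 alternatives. *Csf1* was 61.9, 67.5 and 99.9 in fragments and 33.4, 40.6 and 31.2 in mural cells, a share of 45.9% (adjusted p = 0.00889 by limma) that passed the limit of 0.5 only with fragments library 3, since it was 54.2% without it. Of 6 tested genes of macrophage growth factors and their receptors, 4 were called lower and 1 higher. Over all tested genes 10.1% were called lower and 6.43% higher. The receptors *Csf2ra* and *Csf2rb* were at 21.4 and 6.07%, *Tgfb1* at 72.1% was not called, and *Csf2* was listed at 0 in all 6 libraries.

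**Figure D4:**
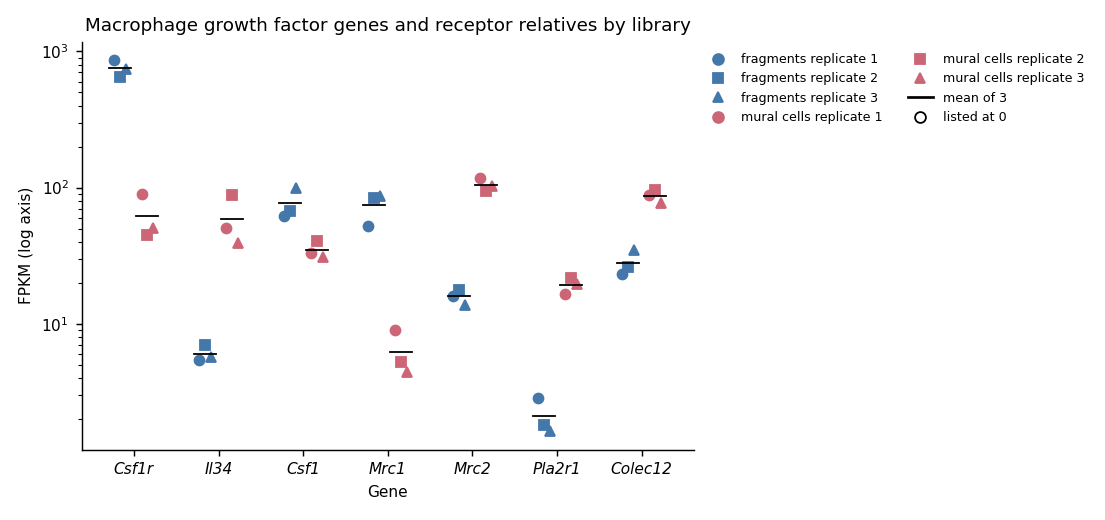
FPKM of *Csf1r*, its ligand genes *Il34* and *Csf1*, *Mrc1*, its relatives *Mrc2* and *Pla2r1*, and the scavenger receptor gene *Colec12* in each library (log axis); points are libraries and bars the means of 3. *Il34*, *Mrc2*, *Pla2r1* and *Colec12* are higher in all mural cell libraries than in any fragments library, and *Csf1r*, *Csf1* and *Mrc1* lower.

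The haemoglobin receptor gene *Cd163* belongs to a group of genes that handle heme and iron, of which 10 were tested, with a median of 52.1%. Of the 10 genes, 4 were called lower and 0 higher, against 10.1% and 6.43% of all tested genes. Besides *Cd163* these were *Hmox1*, heme oxygenase 1 (127 ± 9.10 against 33.9 ± 7.62 FPKM, 26.6%, adjusted p = 0.000435 by limma), the iron transporter *Slc11a1* (10.1%, adjusted p = 0.00381) and the ferritin light chain *Ftl1*. *Ftl1* was at 46.1% and no longer under the limit without fragments library 3 (51.5%). The transferrin receptor *Tfrc* (78.0%) and the ferritin heavy chain *Fth1* (58.2%) were not called, since their ratios were above 0.5. *Trf* was not matched to a single gene.

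The genes whose pattern over the 6 libraries was closest to the mean pattern of the 9 were named by the root mean square difference of centred log2(FPKM + 1) values, among 10401 other protein-coding genes with a mean of at least 5 FPKM. They were *9030625A04Rik* (0.17), *March1* (0.19), *P2ry6* (0.20), *Galnt12* (0.20), *Gal3st4* (0.22), *Evi2b* (0.23), *Slc37a2* (0.25) and *0610040J01Rik* (0.25), against a median difference of 1.41 over all candidates. *March1* encodes a ubiquitin ligase that removes MHC class II from the cell surface, and *P2ry6* a receptor for UDP. *P2ry6* measured 22.0, 27.7 and 29.4 FPKM in fragments and 3.57, 1.55 and 2.19 in mural cells. Their shares in mural cells ran from 7.29% for *Evi2b* to 14.0% for *9030625A04Rik*. As these genes were selected by this pattern, the values are a description and carry no test.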

How the data were processed

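RNA-seq was performed on 3 samples of sorted mural cells and 3 of microvascular fragments. The authors used TopHat2 2.0.4 for alignment of read pairs to NCBIM37 and Picard 1.92 against duplicated reads, and deposited 1 FPKM value per Ensembl gene and library, from Cufflinks 2.2.1. FPKM values keep no counts, and removal of duplicated reads can lower the values of abundant transcripts. Gene symbols and positions were taken from the annotation of NCBIM37 (33116 of 33460 genes matched).

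A linear model with intensity trend was fitted to log2(FPKM + 1) in limma 3.58.1 (R 4.3.3). Genes entered when 3 or more libraries reached an FPKM of 1, and p-values were adjusted by Benjamini-Hochberg across these 14801 genes. Fold changes on this scale understate those of low genes. Other steps used Python 3.11.15. The fit was tested on simulated data. Values of genes with a single transcript were divided by the FPKM of 1 read pair, and 97.6 to 98.8% of low values came out whole within 0.05, assuming a fragment length of 200 bases. For genes with several transcripts the read pairs are approximations. Single ratios were tested with exact two-sided permutation tests. P-values measure the spread between these 3 libraries per group. Intervals cover counting error only.

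The genes and marker lists were chosen with earlier results of these data known. Beside the 9 genes, the text names from each list those with the highest mean FPKM and the lowest and highest ratios, and the 8 genes closest in pattern. Relatives, neighbours of *Pf4* and *Ms4a7*, and the pairs of genes were chosen after values were seen. The alternatives were a pseudocount of 0.1, no filter on low values, a minimum FPKM of 5, genes at 0 in a whole group left out, median-ratio scaling, quantile normalization, a replicate block, no intensity trend, an adjusted p under 0.01, the fold change of limma for the 2-fold limit, and each library left out. Leaving out both libraries numbered 1 was added after the data were seen.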

Additional observations from a re-analysis of the deposited data

How the results depend on the processing

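The number of the 9 perivascular macrophage genes called lower was 9 under every alternative but 4. It was 7 without fragments library 2, 7 without fragments library 3 and 7 at an adjusted p under 0.01, where *Ms4a7* and *Cbr2* were lost, and 8 of 8 tested with both libraries numbered 1 left out. Of 134 log2 fold changes of these genes under alternatives, 130 kept direction and call, 4 lost the call and 0 turned. Over all genes, 948 rather than 1493 were called lower with a filter at an FPKM of 5, 845 at an adjusted p under 0.01, 556 with both libraries numbered 1 left out, and 607 to 1733 with any single library left out. The log2 fold change of *Ppbp*, not called, turned to 0.52 with quantile normalization and 0.16 without mural cell library 2, and was -0.43 to 0.16 with any single library left out. For 49 other genes named in the text, 650 of 700 values kept direction and call, 48 lost the call and 2 turned. Apart from fewer libraries or genes, the cause of these changes was not tested.

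With the replicate block, 9 of the 9 genes, 1344 of all genes lower and 900 higher were called. Deviations from the group means correlated by 0.08, 0.02 and 0.05 between libraries of the same number, too little to take the numbers as pairs, although each library correlated best with its own number. The limit to low values is the depth of the mural cell libraries, where *Pf4* rests on 4 read pairs in all, *Lyve1* on 9 and *Ms4a7* on approximately 21 in a single library. In mural cell libraries 1, 2 and 3, *Cbr2* rests on approximately 7, 2 and 3 read pairs and *Cd163* on 6, 1 and 7.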

Other observations

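Most genes of the fibroblast list were higher in the sorted mural cells. Of 9 tested genes 7 were called higher and 0 lower by limma, against 6.43% and 10.1% of all tested genes. The median of the 9 was 617% of the fragments level. *Pdgfra* (159%) and *Slc6a13* (219%) were not called, and *Dpt* did not pass the filter. The paper lists *Col1a2*, *Col3a1* and *Ogn* among its mural cell-enriched genes, in a catalogue that draws in part on this same comparison. Whether fibroblasts were among the sorted cells was not tested. *Col1a1*, a chain of collagen I, was 7.19, 7.52 and 11.1 FPKM in fragments and 107, 110 and 115 in mural cells, a 12.9-fold higher mean (adjusted p = 8.09e-05 by limma). *Col1a2* was 12.1-fold and *Col3a1* 8.49-fold higher.

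Of 6 tested genes of antigen presentation and dendritic cells, 3 were called lower and 0 higher by limma. Over all tested genes 10.1% were called lower and 6.43% higher. Levels of the 6 genes in mural cells ran from 1.33 to 457% of fragments with a median of 31.6%. The number called lower was 2 of 5 tested without any single fragments library and 1 of 5 with both libraries numbered 1 left out. Of 8 mast cell genes, 2 passed the filter, of which *Hdc* was called lower and *Kit* higher. *Hdc* did not pass the filter when a fragments library was left out.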
